A study of Drosophila melanogaster with 22 samples.

Results

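Chromatin accessibility was compared between hearts of old and young adult fruit flies, Drosophila melanogaster, of the w1118 strain, a white-eyed laboratory stock that carries no heart transgene in the labels. Libraries were put into groups by their titles, which gave 3 libraries at 5 weeks of age and 3 at 1 week, 6 of the 22 libraries of the series. The other 16, all from 1-week hearts with the heart driver Hand-Gal4, were 4 attp2 and 3 attp40 controls and 4 LamC and 5 LamB RNAi libraries, and are used as a second reading of young hearts and, in a wider fit, to estimate the spread. The stated purpose of the series was to find regions that differ in accessibility both with age and after loss of a lamin; the age comparison supplies the first of these sets. The design text counts fewer LamC and LamB RNAi libraries than the titles do, and all titled libraries were used. The assay was done in bulk on nuclei of dissected hearts. The labels do not state if the replicates of an age are separate pools of flies, so every p-value here reflects a library-to-library spread that could be technical. In bulk tissue, fewer nuclei of a cell type and less open DNA per nucleus cannot be told apart.

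ATAC-seq marks open chromatin, because the transposase inserts sequencing adapters into DNA that is not wrapped in nucleosomes. Promoters of active genes are open in most cells of a tissue, whereas enhancers, many of which lie in introns or between genes, tend to be open in the cell types where they act. The fly heart is a tube of contractile cardiomyocytes, flanked by pericardial nephrocytes, which filter the hemolymph with a slit diaphragm built of the proteins Sns and Kirre. Conserved transcription factors such as Hand, Mef2 and the T-box factors Midline and H15 pattern the tube, and with age the organ is known for arrhythmia and stiffening.

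Each library came with its own list of peaks, each peak with the authors' fold enrichment and −log10 p. The 6 deposited lists held 10637 to 12395 peaks, and each was cut to its 10637 strongest peaks by −log10 p. Overlapping peaks were merged into 10363 regions, each with peaks in 3 or more of the 6 libraries. The rank score of a region in a library runs from 1 for the strongest peak of that list to 0 where the cut list holds no peak. It is relative within a library and cannot show whether old hearts hold more or less open DNA in total, and the read depth is unknown. The weakest peak kept had a −log10 p of 3.4 to 9.52, so the cut fell at different strengths in different libraries. Region scores correlated at 0.897 to 0.929 between libraries of one age and at 0.841 to 0.912 between libraries of different ages, across regions that share their libraries. The heart genes Hand (highest score of its regions 0.714 to 0.887 over the 6 libraries), mid (0.755 to 0.973), H15 (0.767 to 0.962), pnr (0.832 to 0.956) and Mef2 (0.906 to 0.954) all held strong peaks in every library. The heart factor gene tin held no region, and the T-box genes Doc1, Doc2 and Doc3 reached at most 0.22, 0.513 and 0.57.

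Most regions, 8006 (77.3%), held peaks at both ages in every library, and presence split cleanly by age in few. Peaks in 3 of 3 libraries at 5 weeks and 0 of 3 at 1 week were found in 127 regions (1.23% of all), called 5-week regions here, and the opposite pattern in 135 (1.3%), called 1-week regions. The scores of all 3 old libraries lay above those of all 3 young ones in 902 regions (8.7%) and below them in 1058 (10.2%), 18.9% together. In limma on the rank scores of the 6 libraries with Benjamini-Hochberg adjustment, 1 region (0.00965%) passed an adjusted p of 0.05, and it rose. None fell at that threshold, while 809 were lower and 649 higher at an unadjusted p under 0.05 (14.1% of all regions). A fit of all 22 libraries took the spread from all of them. Its lists were cut to 8491 peaks and merged anew, so its scores and regions differ as well. In that fit 130 of 9850 regions (1.32%) passed, 60 higher (0.609%) and 70 lower (0.711%). All 130 overlapped a region of the 6 libraries with the same direction and with ages that did not overlap. The region that passed on 6 libraries was not among them. Where an adjusted p is given below it is limma's on the 6 libraries unless the fit of 22 is named, and regions that passed neither are given as values.

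The region that rose lay at 2L 9330626 to 9330800, 175 bp at an end of Cks30A, which encodes a small subunit of cyclin-dependent kinases that acts in female meiosis and the early embryo. It overlapped the end of CG17005 as well. Its rank score was 0 in all 3 young libraries and 0.691, 0.596 and 0.662 in the old ones, where the authors' fold enrichment was 7.52, 6.14 and 5.89. The ages did not overlap, and the deposited lists of young replicates 1 and 3, the young ones that go on past the cut (by 733 and 458 peaks), held no peak there below it. The difference in mean score was 0.650 (SE 0.066, adjusted p = 0.0180), and with the 22-library fit the adjusted p was 0.180. The region entered the table through the 3 old libraries alone, and its young scores, all at the floor of 0, have no spread of their own. With no filter on regions its adjusted p was 0.138, and without young replicate 2 or 3 it was 0.128 and 0.164. The region also had a peak in 2 of the 7 young attp libraries and in 4 of the 9 young RNAi libraries.

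The 5-week regions with the largest differences lay at gene ends as often as in gene bodies, 7 of 14 each. CG4230 and CG5828, whose ends adjoin, shared a region that scored 0 in the young libraries and 0.373, 0.463 and 0.524 in the old ones. A region at the end of Fign, whose product is a fidgetin-type microtubule-severing ATPase, scored 0 and then 0.456, 0.410 and 0.40. CG34112 scored 0 and then 0.501, 0.426 and 0.406 (adjusted p = 0.0703 on 6 libraries, 0.0135 on 22). Below the cut, the lists of young replicates 1 and 3 held no peak at any of these 14, and that of replicate 2 ends at the cut.

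A 177-bp region inside Calx, the sodium-calcium exchanger that carries calcium out of the cardiomyocyte after each beat, scored 0 in the 3 young libraries. It scored 0.419, 0.407 and 0.348 in the old ones, with fold enrichments of 6.36, 5.35 and 4.48. The old libraries agree closely, and 1 of 7 attp and 2 of 9 RNAi libraries had a peak there. Its adjusted p was 0.0716 on 6 libraries and 7.82e-05 on 22. The other Calx regions went the opposite way. A region of Calx with peaks in all 6 libraries scored 0.571, 0.609 and 0.717 at 1 week and 0.529, 0.436 and 0.348 at 5 weeks. The remaining one was a 1-week region at the very end of the young lists, with scores of 0.022, 0.030 and 0.012.

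The gene mim, which encodes a membrane-bending actin regulator, had 5 regions, of which 2 were higher at 5 weeks without overlap and none lower. The first, shared with CheB42c, scored 0 in the young libraries and 0.442, 0.350 and 0.343 in the old ones (adjusted p = 0.0873 on 6 libraries, 0.000285 on 22). The second had peaks in all 6 libraries, at 0.225, 0.241 and 0.206 when young and 0.445, 0.597 and 0.694 when old (0.124 and 0.00931). The first region had no peak in any of the 7 attp libraries. The same was true of a 5-week region inside sbb, which encodes the corepressor Scribbler, at 0.303, 0.335 and 0.473 in the old libraries (0.0873 and 0.00241). The sbb locus as a whole was mixed, with 10 regions of which 2 were higher and 3 lower without overlap.

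Further 5-week regions among these 14 lay at mRpL4 (0.401, 0.356 and 0.303), a protein of the mitochondrial ribosome, and in GluProRS (0.316, 0.411 and 0.272), a tRNA synthetase. Lmpt, which encodes the LIM-domain muscle protein Limpet, held one at 0.193, 0.436 and 0.256. The region at abs, an RNA helicase gene, scored 0.439, 0.311 and 0.401. The region that overlapped it in the 22-library fit, merged anew, had a difference of -0.014. With young scores of 0 a shorter list cannot give a negative difference, so that value is for a region of other extent. Over the 14, adjusted p-values ran from 0.0180 to 0.133 on 6 libraries, and 6 of the 14 passed on 22.

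The 1-week regions with the largest differences included 2 neighbours 3834 and 3002 bp from tara, a gene that encodes a nuclear cofactor linked to the Trithorax group. The stronger, at 3R 16221366 to 16221817, scored 0.589, 0.436 and 0.471 in the young libraries and 0 in the old ones. The difference was -0.499 (SE 0.067, adjusted p = 0.0703 on 6 libraries, 0.00853 on 22). The weaker, at 3R 16222193 to 16222649, scored 0.353, 0.295 and 0.326 and then 0 (0.0873 and 0.0214). No old list held a peak at either below the cut, where replicate 3 lists only 9 peaks, and 5 and 4 of the 7 attp libraries had one. The tara locus held 13 regions in all, 10 of them with peaks in every library and 1 of them higher at 5 weeks without overlap.

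The next strongest 1-week region lay inside CG34357, at 0.338, 0.341 and 0.562 in the young libraries, and a second one of that gene scored 0.302, 0.121 and 0.290. The other 2 of the 4 regions of CG34357 were higher at 5 weeks without overlap. A region inside bab1, which encodes a BTB-domain transcription factor, scored 0.271, 0.285 and 0.349 (adjusted p = 0.0903 on 6 libraries, 0.00853 on 22). Sdc, the heparan sulfate proteoglycan syndecan, had one at 0.321, 0.240 and 0.316. All these scored 0 at 5 weeks. Ocho, a gene of the Bearded family of Notch modulators, Sema5c, a semaphorin, and Abl, a tyrosine kinase of the cytoskeleton, were also among the 14. Their adjusted p-values were 0.0703 to 0.15, and 3 of the 14 passed on 22 libraries. In 9 of the 14 no old list held a peak below the cut, although old replicate 3 lists only 9 peaks there.

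**Figure D1:**
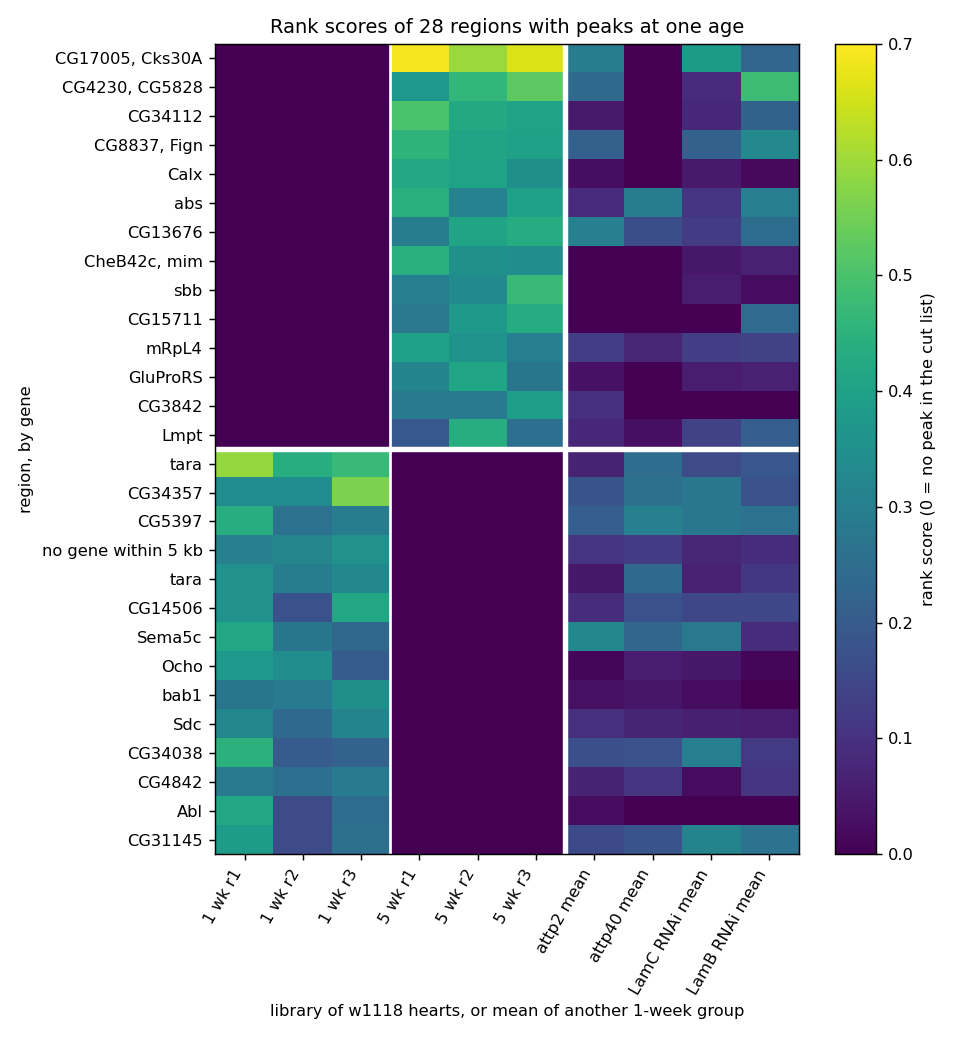
Rank score (colour, 0 to 0.7) of the 14 regions of each kind with the largest score differences, by gene, in the 6 w1118 libraries (r = replicate) and as the mean of each of the other 1-week groups. The upper 14 are 0 in every young w1118 library and the lower 14 are 0 in every old one, which is how they were chosen. The attp40 mean is 0 at 10 of the upper 14 and at 1 of the lower 14, while the attp2 mean is 0 at 3 and 0 of them.

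Regions of both kinds were narrower and lay less often at gene ends than those with peaks in every library. Of the 127 5-week regions, 38 (29.9%) lay at a gene end, within 500 bp of the start or stop of a protein-coding gene, and 70 (55.1%) elsewhere in a gene body. Of the 135 1-week regions, 24 (17.8%) lay at a gene end and 85 (63.0%) in a gene body. Among regions with peaks in all 6 libraries 63.3% lay at gene ends, and among regions with other patterns 36.7%. Median width was 311 bp in 5-week regions, 393 bp in 1-week regions, 394 bp in the other variable regions and 780 bp in those with peaks everywhere. Regions of at most 300 bp made up 44.9% of the 5-week regions, 17.8% of the 1-week regions, 23.4% of the other variable regions and 2.14% of those with peaks in all 6. With the lists cut to 5318 peaks, 65.2% of the 46 5-week regions and 26.7% of the 60 1-week regions lay at gene ends, beside 73.5% of regions with peaks in all 6, so the gap for 5-week regions was smaller there. Stronger regions were wider (Spearman's rho 0.618 between mean score and width across the 10363 regions, which share their libraries), and the median of the mean score was 0.602 at gene ends and 0.326 in gene bodies; the part of strength in these shares was not tested.

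**Figure D2:**
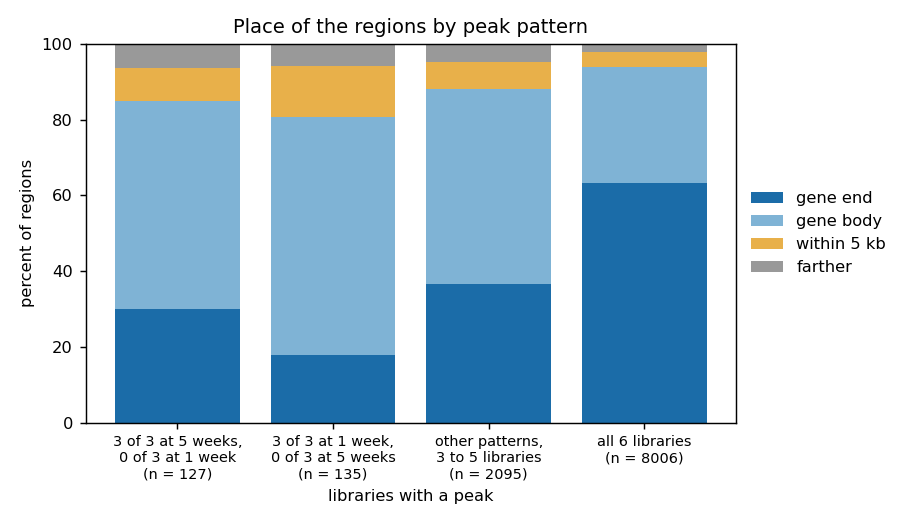
Share of regions (percent, y axis) by place, from gene ends (dark blue) and gene bodies (light blue) to sites up to 5 kb away or farther, for each set of libraries with a peak (x axis). Gene ends make up 29.9% of 5-week and 17.8% of 1-week regions against 63.3% of regions with peaks in all 6 libraries.

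Away from gene ends, lower scores at 5 weeks outnumbered higher ones. In gene bodies all old libraries were below all young ones in 14.8% of 3693 regions and above them in 9.67%. In regions outside genes but no farther than 5 kb the shares were 19.3% and 10.8%. At gene ends the order turned, with 6.27% of 5900 regions lower and 7.68% higher. The share of each cut list at gene ends was 54.8% ± 0.209 at 1 week and 55.9% ± 0.982 at 5 weeks (SD, n = 3 each, exact permutation p = 0.2, adjusted p = 0.6).

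Of 15 measures of whole libraries, none had an adjusted p below 0.5. An exact two-sided permutation test of 3 against 3 libraries cannot give a p under 0.1, and 3 of the 15, those whose ages did not overlap, reached it. The share of peaks on chromosome 4, which is small and largely heterochromatic, was 0.874%, 0.865% and 0.884% at 1 week and 0.940%, 0.959% and 1.01% at 5 weeks. Peaks on unplaced or Y sequences numbered 6, 7 and 7 when young and 9, 11 and 11 when old. The other was the share of peaks on 3L, which was lower in each old library than in each young one. Deposited peaks (11034 ± 370 and 11338 ± 930), covered length and median width overlapped between the ages.

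Genes of heart identity had more regions with lower than with higher scores at 5 weeks. Over 77 regions of the 25 cardiac transcription factor genes, 17 (22.1%) were lower without overlap and 4 (5.19%) higher, beside 10.2% and 8.7% of all regions and 14.8% and 9.67% of gene-body regions; none passed limma on the 6 libraries. At the end of mid, which encodes the T-box factor Midline, scores were 0.954, 0.943 and 0.973 in young and 0.833, 0.827 and 0.755 in old hearts. The 2 sets stand apart although the region stayed among the strong peaks (difference -0.152, adjusted p = 0.0873 on 6 libraries, 0.0147 on 22). Its paralogue H15 scored 0.956, 0.920 and 0.962 and then 0.890, 0.899 and 0.767. The homeobox gene hth, a Hox cofactor, had 9 regions, 4 of them lower without overlap and none higher. The Hox genes abd-A and Ubx, which pattern the posterior heart, each held a weak 1-week region. That of abd-A scored 0.138, 0.006 and 0.274 (adjusted p = 0.401), and that of Ubx 0.138, 0.0 (the last ranks of the list) and 0.055 (0.615). Another Hox gene, Antp, had a region that scored 0.118, 0 and 0.039 when young and 0.31, 0.172 and 0.286 when old (0.196).

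The opposite direction was seen at svp, the nuclear receptor gene that marks the inflow cells of the heart, where 2 of 9 regions were higher and none lower. One scored 0.094, 0 and 0.031 at 1 week and 0.328, 0.305 and 0.330 at 5 weeks (adjusted p = 0.110 on 6 libraries, 0.212 on 22). The other scored 0.254, 0.186 and 0.10 and then 0.428, 0.531 and 0.480. The LIM-homeobox gene tup held regions of both kinds. One was at 0 in young hearts and 0.134, 0.413 and 0.242 in old ones, and 2 of its others were lower at 5 weeks.

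In the list of other homeobox and forkhead genes, 19 of 91 regions (20.9%) were lower and 7 (7.69%) higher, beside 10.2% and 8.7% of all regions and 14.8% and 9.67% of gene-body regions. The list also holds Pdp1, a bZIP gene, without which 18 of 74 regions (24.3%) were lower and 5 (6.76%) higher. Without old replicate 3 the list had 20 lower and 13 higher, the latter 14.3% beside 11.9% of all regions. The homeobox gene ct had 6 regions, 5 of them lower without overlap. The one with the largest difference scored 0.752, 0.568 and 0.679 at 1 week and 0.295, 0.206 and 0.244 at 5 weeks (difference -0.418, SE 0.075, adjusted p = 0.0879 on 6 libraries, 0.0189 on 22). At the forkhead gene slp2 the scores were 0.730, 0.577 and 0.581 and then 0.299, 0.228 and 0.172 (0.0996 and 0.0308). Of 12 regions at foxo, the insulin-responsive forkhead factor, 2 were higher and 1 lower. The hormone-response and temporal factors, with 177 regions, stood near the background at 16 lower (9.04%) and 13 higher (7.34%). Eip93F, an ecdysone-induced factor of adult fate, held a 5-week region at 0.188, 0.201 and 0.148. There 2 young lists held a peak below the cut, and 6 of the 9 RNAi libraries but none of the attp ones had a peak. Of the 8 regions of Eip93F 2 were higher and 1 lower.

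Among genes of contraction, the calcium handling list stood further from the background than the sarcomere list. Over the 101 regions of the calcium handling and ion channel list 27 (26.7%) were lower and 4 (3.96%) higher, beside 14.8% and 9.67% of gene-body regions, with a median score difference of -0.0587 beside 0.0004 over all regions. They included regions of the calcium channel genes Ca-alpha1D, Ca-alpha1T and Ca-beta, the potassium channel genes Shab, Shal and SK, and calmodulin (Cam). Ca-alpha1D, the main L-type channel of the fly heart, scored 0.465, 0.512 and 0.571 in young hearts and 0.338, 0.227 and 0 in old ones. For Itpr, the calcium-release receptor of the endoplasmic reticulum, the scores were 0.271, 0.256 and 0.170 and then 0.040, 0 and 0 (adjusted p = 0.146 on 6 libraries, 0.385 on 22). Higher regions belonged to Calx, to SERCA, the calcium pump of the reticulum (0.641, 0.610 and 0.664, then 0.733, 0.794 and 0.843), to Nckx30C and to Orai. SERCA also held a weak 1-week region, at 0.051, 0.189 and 0.069 in young hearts. Members of this list named beyond Calx and Itpr were picked after their values were seen.

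Replicate 3 at 5 weeks, singled out after its values were seen, had the lowest mean of the 6 libraries over this list, 0.316 beside 0.371 and 0.392 in the other old libraries and 0.397 to 0.444 in the young ones. Over the sarcomere list the mean was 0.283 in that library, 0.383 and 0.408 in the other old ones and 0.407 to 0.436 in the young ones. Its estimated weight was also the lowest (0.6617). Without that library the list means still did not overlap for calcium handling, whereas for the sarcomere old replicate 2 (0.408) lay above young replicate 1 (0.407). On the 5 remaining libraries, 29.7% of the calcium handling regions, 18.3% of the sarcomere regions and 29.9% of the cardiac transcription factor regions were lower, beside 15.3% of all regions. The share of gene-body regions on those libraries is not given here, so these shares have no gene-body value beside them. With each of the 6 libraries left out in turn, also counted after seeing the data, these 3 lists had more lower than higher regions every time. The same held for the homeobox and forkhead, extracellular matrix, Dpp, Wnt, Notch, EGF, nephrocyte and hemocyte lists, so it was not particular to these 3. Over all regions the order turned without old replicate 1 (1761 higher, 1565 lower).

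Of the 109 sarcomere regions 16 (14.7%) were lower and 6 (5.5%) higher, beside 10.2% and 8.7% of all regions and 14.8% and 9.67% of gene-body regions. The share of lower regions was near that of gene-body regions. The list also holds gene-end regions, of which 6.27% were lower over all genes, so the places are not matched. A region in sls, the gene of the titin-like protein Sallimus, scored 0.552, 0.670 and 0.707 at 1 week and 0.363, 0.421 and 0.263 at 5 weeks (adjusted p = 0.15 on 6 libraries, 0.153 on 22). Fhos, an actin-assembling formin needed for myofibrils, had 7 regions of which 3 were higher and 2 lower. In Dys, which encodes dystrophin, the link between the muscle membrane and the cytoskeleton, 11 regions were found. One of them scored 0.012, 0 and 0.077 in young hearts and 0.360, 0.642 and 0.488 in old ones (difference 0.467, SE 0.081, adjusted p = 0.0873 on 6 libraries, 0.000392 on 22). Another scored 0.319, 0.324 and 0.467 and then 0.180, 0.046 and 0.121 (0.164 and 0.00206). The ages did not overlap at either, and 7 of the 11 Dys regions had peaks in every library.

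**Figure D3:**
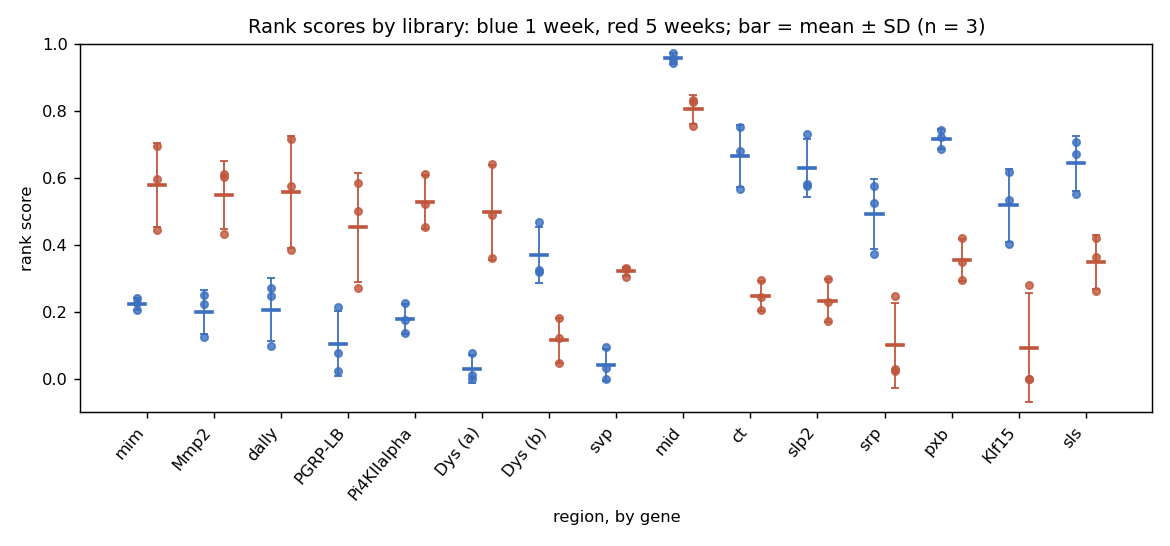
Rank score (y axis) in each library at 15 regions named by gene, with the mean and SD of each age (n = 3). Dys (a) and Dys (b) are the 2 regions of that gene described in the text. Libraries of the 2 ages do not overlap at any of them. For mim, Mmp2, dally, PGRP-LB, Pi4KIIalpha, ct, slp2, srp and pxb this was a condition of the choice, and the others had the lowest p of a gene list. The score of mid in old hearts, 0.755 to 0.833, stayed above that of every other region shown.

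The extracellular matrix list had lower scores at 18 of 73 regions (24.7%) and higher ones at 7 (9.59%), the latter near the 8.7% of all regions and the 9.67% of gene-body regions, for which the lower shares were 10.2% and 14.8%. The lower regions belonged to trol (perlecan, 3 of 6 regions), Ndg (nidogen, 2), LanA and LanB2 (laminin chains), Col4a1 (collagen IV), the multiplexin gene Mp (2), the papilin gene Ppn, the netrin genes NetA and NetB (1 and 2), the netrin receptor gene fra, Sdc and dally (2). The higher ones belonged to Mmp1 (2), Mmp2, their inhibitor gene Timp, dally (2) and dlp. Mmp2 had a region at 0.224, 0.249 and 0.124 when young and 0.431, 0.603 and 0.612 when old (adjusted p = 0.123 on 6 libraries, 0.00931 on 22). Mmp1 had a 5-week region at 0.175, 0.185 and 0.083 that was absent from all 16 other libraries. The glypican gene dally, a cofactor of secreted growth factors, had 10 regions, of which 2 were higher and 2 lower. The largest difference among them was at a region with 0.248, 0.271 and 0.098 when young and 0.384, 0.716 and 0.576 when old (0.158 and 0.042).

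Among signalling pathways the share of lower regions was highest for Wnt, at 13 of 46 (28.3%) against 1 higher (2.17%), where gene-body regions had 14.8% and 9.67%. Of these 13, 6 belonged to the receptor gene fz2. The secreted Wnt inhibitor Notum accounted for 2 more, one of them at 0.419, 0.459 and 0.290 in young hearts and 0.067, 0.068 and 0.092 in old ones (adjusted p = 0.110 on 6 libraries and 0.11 on 22). Notch pathway regions were lower at 10 of 41 (24.4%) and higher at 2 (4.88%). Dpp and activin regions were lower at 9 (14.8%) and higher at 2 (3.28%) of 61. Their lower share equals that of gene-body regions, but the list also holds gene-end regions, so the places are not matched. A region at the end of dpp, the BMP ligand, scored 0.439, 0.412 and 0.256 and then 0.092, 0.072 and 0.126 (adjusted p = 0.15 on 6 libraries, 0.317 on 22). EGF, FGF and MAP kinase genes had 10 lower (12.8%) and 6 higher (7.69%) regions of 78, close to the shares of all regions. The higher ones included 5-week regions of pnt, the ETS factor downstream of the kinase (0.279, 0.223 and 0.286, adjusted p = 0.110 on 6 libraries, 0.107 on 22), and of puc, the phosphatase that limits JNK (0.119, 0.277 and 0.239). Neither region had a peak in any of the 16 other libraries. Both genes also had 2 lower regions, those of pnt with differences of -0.246 and -0.09 and those of puc with -0.033 and -0.002. The PDGF and VEGF-type ligand Pvf3 was lower at all 4 of its regions and its receptor Pvr at 1 of 4, where scores went from 0.567, 0.345 and 0.596 to 0.015, 0.253 and 0.182 (0.152 on 6 libraries, 0.184 on 22). Pvr held a 5-week region as well, at 0.169, 0.178 and 0.24 in the old libraries (0.152 on 6).

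Genes of metabolism, stress and immunity had shares of lower regions nearer to or below the 10.2% of all regions, of which 8.7% were higher. The insulin, TOR and lipid list had 8 lower and 8 higher regions of 84, glycolysis 3 and 3 of 26, and oxidative phosphorylation 2 lower (4.88%) and 3 higher (7.32%) of 41 with a median difference of 0.0339. Without old replicate 3 the last had 4 lower and 8 higher (19.5% higher beside 11.9% of all regions), and the insulin, TOR and lipid list 11 and 13. Ldh, lactate dehydrogenase, scored 0.726, 0.748 and 0.699 at 1 week and 0.852, 0.884 and 0.822 at 5 weeks (adjusted p = 0.139 on 6 libraries, 0.168 on 22). Innate immunity and JAK-STAT genes had 7 higher (10.0%) and 3 lower (4.29%) regions of 70. PGRP-LB, an amidase that dampens the Imd response, had a region at 0.077, 0.024 and 0.213 in young and 0.272, 0.585 and 0.500 in old hearts (0.153 on 6 libraries, 0.041 on 22). Without old replicate 3 the immunity list had 9 higher (12.9%) and 7 lower (10.0%), beside 11.9% and 15.3% of all regions. Regions of PGRP-LC, Dif, dl and Socs36E were also higher, and were named after their values were seen. Stress response and proteostasis genes had 4 higher (6.25%) and 3 lower (4.69%) regions of 64. Without old replicate 3 they had 6 and 6 (9.38% each, beside 11.9% and 15.3% of all regions). At Ire1, whose product senses misfolded protein, a region went from 0.301, 0.229 and 0.406 to 0.642, 0.710 and 0.515 (0.151 and 0.0261), while another went the other way, from 0.622, 0.433 and 0.542 to 0.232, 0.398 and 0.302 (0.252 on 6 libraries).

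Nuclear envelope and lamina genes, with 31 regions, had 3 higher (9.68%) and 2 lower (6.45%), beside 8.7% and 10.2% of all regions. Without old replicate 3 they had 4 higher (12.9%) and 6 lower (19.4%), beside 11.9% and 15.3% of all regions. On the 6 libraries the higher ones belonged to baf, Nup50 and kuk, and the lower ones to Nup153 and Lam. The Lam region, of the B-type lamin gene, scored 0.759, 0.762 and 0.764 and then 0.721, 0.754 and 0.688 (adjusted p = 0.657). Chromatin regulators had 5 higher (8.2%) and 7 lower (11.5%) of 61, close to the shares of all regions. A region in pho, whose product recruits Polycomb complexes to DNA, scored 0, 0 and 0.071 when young and 0.248, 0.420 and 0.410 when old (0.110 on 6 libraries, 0.00697 on 22). One near Psc, a core subunit of Polycomb repressive complex 1, scored 0.791, 0.775 and 0.746 and then 0.533, 0.633 and 0.560 (0.145 and 0.0436).

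Markers of other cell types that a dissected heart can hold differed in score between the ages for some types. Pericardial nephrocyte genes were lower at 7 of 21 regions (33.3%) and higher at 0, beside 10.2% and 8.7% of all regions and 14.8% and 9.67% of gene-body regions. The summed highest score per gene over the 8 genes was 4.89 to 5.29 in young libraries and 3.98 to 4.40 in old ones. All 3 regions of the nephrin gene sns were lower, and Cubn, the gene of an uptake receptor, held no region. Of the 7 regions of kirre only 1 was lower without overlap and 0 were higher. A kirre region with peaks in all 6 libraries went from 0.736, 0.852 and 0.696 to 0.803, 0.860 and 0.866, with overlap. Klf15, a transcription factor that nephrocytes need, scored 0.617, 0.402 and 0.535 at 1 week and 0, 0.280 and 0 at 5 weeks (difference -0.425, adjusted p = 0.121 on 6 libraries, 0.0261 on 22). Hemocyte genes were lower at 4 of 12 regions (33.3%, against the same 10.2% and 14.8%), with sums of 4.28 to 4.44 and 3.90 to 4.13. The largest difference among them was at a region near srp, a GATA factor of blood cells and fat body, at 0.526, 0.374 and 0.575 and then 0.023, 0.030 and 0.246 (0.121 and 0.0313). The hemocyte genes He, PPO1, PPO2, Sr-CI, eater, gcm and gcm2 held no region.

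Fat body genes were higher at 4 of 10 regions (40.0%) and lower at 0, beside 8.7% and 10.2% of all regions, with sums of 3.21 to 4.07 in young and 4.13 to 4.29 in old libraries; Fbp1, Fbp2, Lsp1alpha and Lsp1gamma held no region. The fatty acid desaturase gene Desat1 had a region at 0, 0.114 and 0.007 and then 0.260, 0.415 and 0.459 (adjusted p = 0.110 on 6 libraries, 0.0562 on 22). It was the only 1 of 4 Desat1 regions that was higher without overlap. Another, at the gene's end, went from 0.335, 0.352 and 0.198 to 0.062, 0.122 and 0.381, with overlap. Trachea and epidermis genes were higher at 3 of 14 regions (21.4%) and lower at 1 (7.14%), with sums of 3.79 to 3.91 and 4.19 to 4.90. The cuticle protein genes Cpr49Aa and Cpr49Ab shared a region at 0, 0.050 and 0.106 and then 0.282, 0.624 and 0.594. The region of trh went the other way, from 0.969, 0.955 and 0.973 to 0.953, 0.897 and 0.873. The genes btl and sha held no region. Neuron and glia, somatic muscle and germline sums overlapped between the ages. The summed score of the cardiac transcription factors was 15.79 to 17.05 in young and 14.48 to 15.55 in old libraries. The part of these marker shifts in the results of the other lists was not tested.

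**Figure D4:**
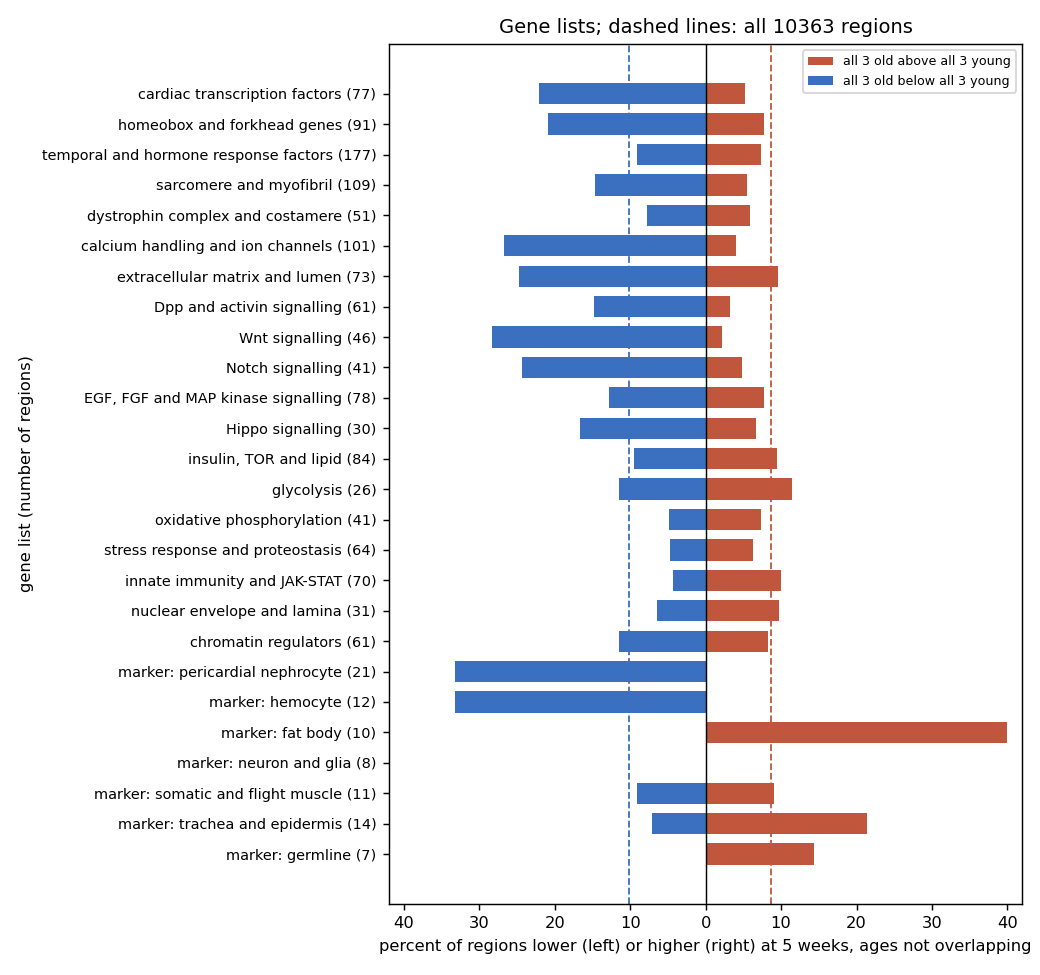
For each gene list (number of regions in brackets), the percent of regions whose 3 old libraries all lie below (blue, left) or above (red, right) the 3 young ones; dashed lines give the same over all regions, 10.2% and 8.7%. Of the 26 lists, 15 had more lower than higher regions and 7 the reverse.

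Several loci held more than 1 of the 262 regions found at a single age. There were 12 such genes, of which 5 held both kinds (Calx, Fhos, Lmpt, Mkp3 and mtgo), 5 held 1-week regions alone (CG3328, CG34357, Pvf3, sns and tara) and 2 held 5-week regions alone (CG5973 and Tif-IA). In Lmpt the 1-week region scored 0.039, 0.155 and 0.199, and 7 of the 12 Lmpt regions had peaks in every library. In Mkp3, the phosphatase of ERK, the 5-week region scored 0.097, 0.133 and 0.224 and the 1-week region 0.085, 0.128 and 0.076. Tif-IA, an initiation factor for ribosomal RNA transcription, had 5-week regions at 0.337, 0.113 and 0.108 and at 0.091, 0.050 and 0.124.

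Young hearts of the other control strains mostly held peaks at a larger share of the 1-week than of the 5-week regions. This was so in 6 of the 7 attp libraries, whereas attp2 replicate 3 had a peak at 44.9% of the 5-week and 34.8% of the 1-week regions. It was so in 6 of the 9 RNAi libraries, and 3 had the opposite order. Of the 127 5-week regions 51 (40.2%) had no peak in any of the 7 attp libraries, against 18 (13.3%) of the 135 1-week regions, 11.2% of the other variable regions and 3.28% of all regions. Peaks in most attp libraries were found at 12.6% of 5-week regions and 37.0% of 1-week regions. In all 16 other libraries together, 24 5-week regions and 8 1-week regions had no peak. The shortest of these 16 lists held 8491 peaks, beside 10637 in each cut w1118 list. The part of list length in these counts was not tested. The attp hearts differ from w1118 in genetic background and carry Hand-Gal4, so strain and age cannot be told apart in a comparison of old w1118 with them. Below the cut, 25 of the 127 5-week regions had a peak in some young list and 59 of the 135 1-week regions had one in some old list. These counts follow the length of the lists and were not compared: 0 to 733 peaks lie below the cut in a young list and 9 to 1758 in an old one, and old replicate 1, with 1758, accounts for 54 of the 59.

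**Figure D5:**
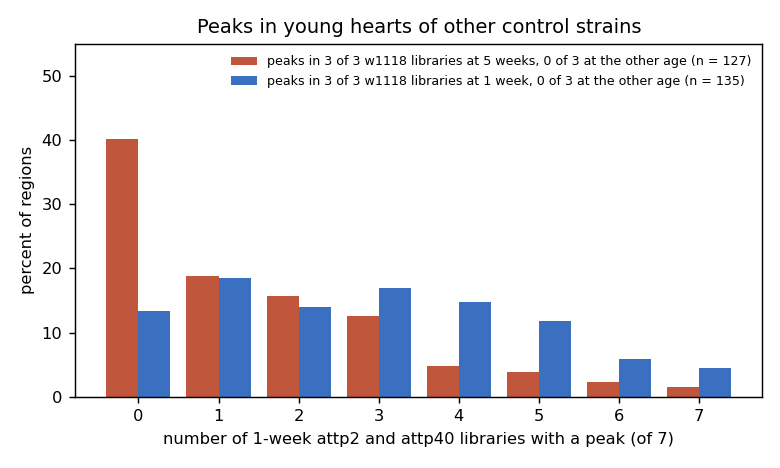
Percent of 5-week regions (red, n = 127) and 1-week regions (blue, n = 135) by how many of the 7 young attp2 and attp40 libraries held a peak (x axis). The bar at 0 libraries is 40.2% for 5-week and 13.3% for 1-week regions.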

How the data were processed

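Bulk ATAC-seq peak lists of 22 fly heart libraries were used, one narrowPeak list per library. The submitters' processing notes name Bowtie2, SAMtools, Picard and MACS2 and the build dm6. Tool versions, settings and any shift of reads to the transposase cut are not given in the sources used. The deposited lists give each peak a fold enrichment (a ratio to local background) and a −log10 p, both made by the authors' peak caller within 1 library.

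Each of the 6 w1118 lists was cut to 10637 peaks by −log10 p and merged with bedtools 2.31.1 (overlap of at least 1 bp); regions needed a peak in 3 libraries. The rank score is 1 − (rank − 1)/list length of the strongest peak in the region. Gene spans without strand came from the RefSeq table of Release 6; a region went to genes with an end within 500 bp, then to genes whose body it overlapped, then to the nearest within 5 kb, so exons and introns were not told apart. Motifs and sequences were not used here. Region scores went into limma (version 3.58.1 under R 4.3.3; eBayes with a mean trend) with Benjamini-Hochberg adjustment over all regions, and library measures into exact permutation tests. In simulated data on the 10363 regions, with 200 of them shifted in each of 20 runs, limma called 46.8% of shifts of 0.4 and 0.025% of shifts of 0.2.

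The comparison, the 26 gene lists (575 genes, all found, 8 under another symbol) and the rule for named regions were chosen with earlier results of these data known. Named were all regions past limma, the 14 largest differences of each kind seen at a single age, and the 6 largest a direction with peaks in all 6 libraries and ages that did not overlap. List members seen at a single age and the lowest p of each list in each direction were named as well. File names carry dates whose meaning is not given; those of the 2 ages interleave.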

Additional observations from a re-analysis of the deposited data

How the results depend on the processing

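The number of regions past an adjusted p of 0.05, 1 on the 6 libraries, was 130 with all 22 libraries and lists cut to 8491 peaks. It was 32 with peaks ranked by fold enrichment (21 higher, 11 lower), 5 with library weights, and 0 with lists cut to 5318 peaks or with no filter on regions. With the replicate number as a block it was 0; deviations of same-numbered libraries correlated at 0.00374, 0.0706 and 0.145, so the numbers were not taken to pair the libraries. Leaving out 1 library gave 0 to 3, with 3 without young replicate 1 and 0 without any other; with regions that have a peak in 2 of the 5 libraries, an alternative chosen after seeing the data, it was 0 in all 6. The 127 5-week and 135 1-week regions became 46 and 60 with the shorter lists, and 5-week regions 207 with uncut lists. Without 1 library, where the reduced age needs peaks in 2 libraries only (chosen after seeing the data, since 3 would give 0 by construction), 5-week regions numbered 179 to 329 (329 without old replicate 1, 207 without old replicate 2, 192 without young replicate 3) and 1-week regions 198 to 240; fewer libraries then have to be at 0 or to hold a peak. The list counts without old replicate 3 were also added after seeing the data. Lists with more lower than higher regions numbered 11 to 18 in these settings. With 22 libraries, whose shorter lists were merged anew, the regions overlapping those of abs and sd differed by -0.014 and 0.091, opposite in sign. The abs region scored 0 in all young libraries and the sd region 0 in all old ones. These opposite values are therefore for regions of other extent. At the srp region at that gene's end the difference turned sign without young replicate 1 (-0.05) or old replicate 3 (-0.025, range without 1 library -0.05 to 0.069). Without old replicate 2 the lists were merged anew, and the region matched to that of Pi4KIIalpha differed by -0.031 (range -0.031 to 0.387). In the Pi4KIIalpha region of the 6 libraries, old replicates 1 and 3 (0.521 and 0.452) still lay above the young ones (0.175, 0.136 and 0.226). Read depth is unknown, so whether a score of 0 reflects closed chromatin or too few reads cannot be told apart.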

Other observations

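The genes below lie outside the gene lists and were picked after their values were seen, so they stand for no group. Regions of 3 genes of octopamine synthesis or reception were at 0 in the young w1118 libraries; how many other such genes hold regions was not counted. Tbh, which makes octopamine, scored 0.086, 0.347 and 0.409 in the old libraries, and the receptor genes Octbeta2R and Oct-TyrR scored 0.164, 0.315 and 0.231 and 0.047, 0.15 and 0.187. None passed limma on the 6 libraries (adjusted p = 0.171, 0.144 and 0.320), and Octbeta2R passed when peaks were ranked by fold enrichment (adjusted p = 0.0476). Tbh and Oct-TyrR had no peak in any of the 16 other libraries.

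Single 1-week regions lay at Sema2b, a semaphorin gene (0.372, 0.122 and 0.221 in the young libraries), comm (0.139, 0.161 and 0.090), ena (0.103, 0.213 and 0.084) and Pax, the paxillin gene (0.280, 0.285 and 0.084). None passed limma on the 6 libraries, with adjusted p-values of 0.169, 0.267, 0.293 and 0.185. The region at comm3 went the other way, at 0 in young and 0.250, 0.245 and 0.262 in old hearts (0.11). At Abl 1 region was lower and 2 were higher without overlap. A 5-week region at the end of the antimicrobial peptide genes BomBc2, BomS1 and BomS4 was weak, at 0.011, 0.118 and 0.223.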
